A study of Mus musculus with 26 samples.

Results

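ABC transporter genes were followed in 3 mouse lung cancer lines driven by an EML4-ALK fusion, named EA1, EA2 and EA3. Members were all genes of the count table whose symbol, with case ignored, reads Abca to Abcg, a number and an optional letter, with pseudogenes left out. This gave 50 members among 55391 gene symbols. All were isolated from C57BL/6 mice, and each is 1 line, so a difference between lines cannot be told apart from a difference between the mice they came from. Cells in RPMI-1640 medium with serum received 100 nM alectinib, an inhibitor of the ALK kinase, or 0.1% DMSO as the solvent control, and each combination of line, treatment and day (1, 2, 3 and 5) was sequenced as 1 poly(A) RNA library. The 24 libraries held between 5780062 and 11732401 counts, and 3 counts, taken as the floor of detection, equalled 0.251 to 0.530 CPM. CPM are counts scaled to the total of a library, here with edgeR's TMM factors.

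ABC proteins share an ATP-binding cassette that hydrolyses ATP, and most use it to move a substrate across a membrane. Some members pump drugs and conjugated metabolites out of the cell, of which Abcb1a and Abcb1b, the mouse counterparts of human P-glycoprotein, Abcg2 and the Abcc proteins are the best known. Most Abca proteins, with Abcg1, move phospholipids and sterols. Proteins of the Abcd group, which work as dimers, serve peroxisomes and lysosomes, several Abcb proteins serve mitochondria, and Abce1 and the Abcf proteins act in translation and cross no membrane. Efflux pumps are known for their part in drug resistance of tumours.

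The 2 libraries labelled EA3 day 7 stood apart from their label. Across genes, their log2 values correlated with EA2 libraries of the same treatment at 0.942 to 0.988 and with EA3 libraries at 0.852 to 0.889, and they were kept out of the values below. The labelled origin was also checked with markers. Keratins were abundant, with epithelial markers summing to between 567 and 9252 CPM in a library, while 7 of 9 alveolar type 2 markers in EA1 and EA2 cultures and 5 of 9 in EA3 cultures had at most 3 counts in every library of a treatment, Sftpc and Sftpa1 among them in every group. Of the others, Lpcat1 averaged 34.2 to 81.6 CPM in each group, Sftpd reached 80 counts in an EA3 library, and Slc34a2 averaged 0.0412 CPM in EA3 DMSO and 9.15 CPM in EA3 alectinib, with up to 325 counts. Fibroblast transcripts moved with the drug: the sum of 7 markers lay at 2.14 to 7.46 CPM in EA1 DMSO and 58.3 to 327 CPM in EA1 alectinib libraries, at 58.5 to 71.5 and 122 to 240 CPM in EA2, and at 10.2 to 20.2 and 84.8 to 267 CPM in EA3. Of the 5 tested, 4 rose in EA1 and in EA3 and 3 in EA2, namely Col1a1, Col1a2 and Col3a1 in all 3 lines and Dcn in EA1 and EA3, and Pdgfra was called in no line. Of the 2 not tested, Lum had 0 counts in DMSO and up to 41 in EA1 alectinib, and Thy1 had at most 2 counts in every library. Of the 5 epithelial markers, 1 rose in each line, Epcam in EA1 (log2 fold change 2.45) and Cdh1 in EA2 and EA3 (1.55 and 0.65). Krt18 fell in all 3 lines (-1.51, -1.79 and -1.13), and Krt8 fell in EA2 (-2.61). Of 5 immune markers, Cd68 averaged 40.3 CPM in EA2 DMSO, 37.9 CPM in EA3 DMSO and 3.84 CPM in EA1 DMSO, and was called in no line. Ptprc, Cd3e, Lyz2 and Cd79a had at most 10 counts in a library. Of 4 endothelial markers, Pecam1 fell in EA2 (-2.43), from 2.23 to 0.396 CPM, and no other was called. The part of these shifts in the results below was not tested.

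With alectinib, 8 members rose and 4 fell in EA1, 7 rose and 3 fell in EA2, and 8 rose and 4 fell in EA3, of 31 that had enough counts to be tested. Among all 14264 genes tested, 19.0% rose and 14.6% fell in EA1, 13.0% rose and 11.3% fell in EA2, and 17.5% rose and 15.1% fell in EA3. Of the tested members, 25.8% rose and 12.9% fell in EA1 and in EA3, and 22.6% rose and 9.68% fell in EA2. Whether these shares differ from those of all genes was not tested. The median log2 fold change was 0.08, 0.04 and 0.18 over the members tested, and 0.06, 0.00 and 0.07 over all genes. Both genes for P-glycoprotein, Abcb1a and Abcb1b, fell in all 3 lines, as did Abcd4, although with library size alone as the scaling its fall passed the test in EA2 only. Abcc10 rose in all 3. No member rose in 1 line and fell in another. Calls are adjusted p-values under 0.05 from edgeR's quasi-likelihood test over all genes, which paired the libraries of a line on a day and took the 4 days as replicates, so that the spread includes whatever changed between days. No day had a repeated library. Of the 34 calls, each a member in a line, 17 held under every alternative processing that tested the member and without any 1 day, apart from the setting that also asked for a log2 fold change of 1 or more in size. Without day 3, 3 members rose in EA1. In EA3 4 rose without day 2 and 5 without day 5, and 2 fell without either. With all 26 libraries, the pair labelled EA3 day 7 included, the calls of Abca1 in EA1 and EA3, of Abca2 and Abca3 in EA3, of Abcb9 in EA1 and of Abcf3 in EA2 were lost.

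**Figure D1:**
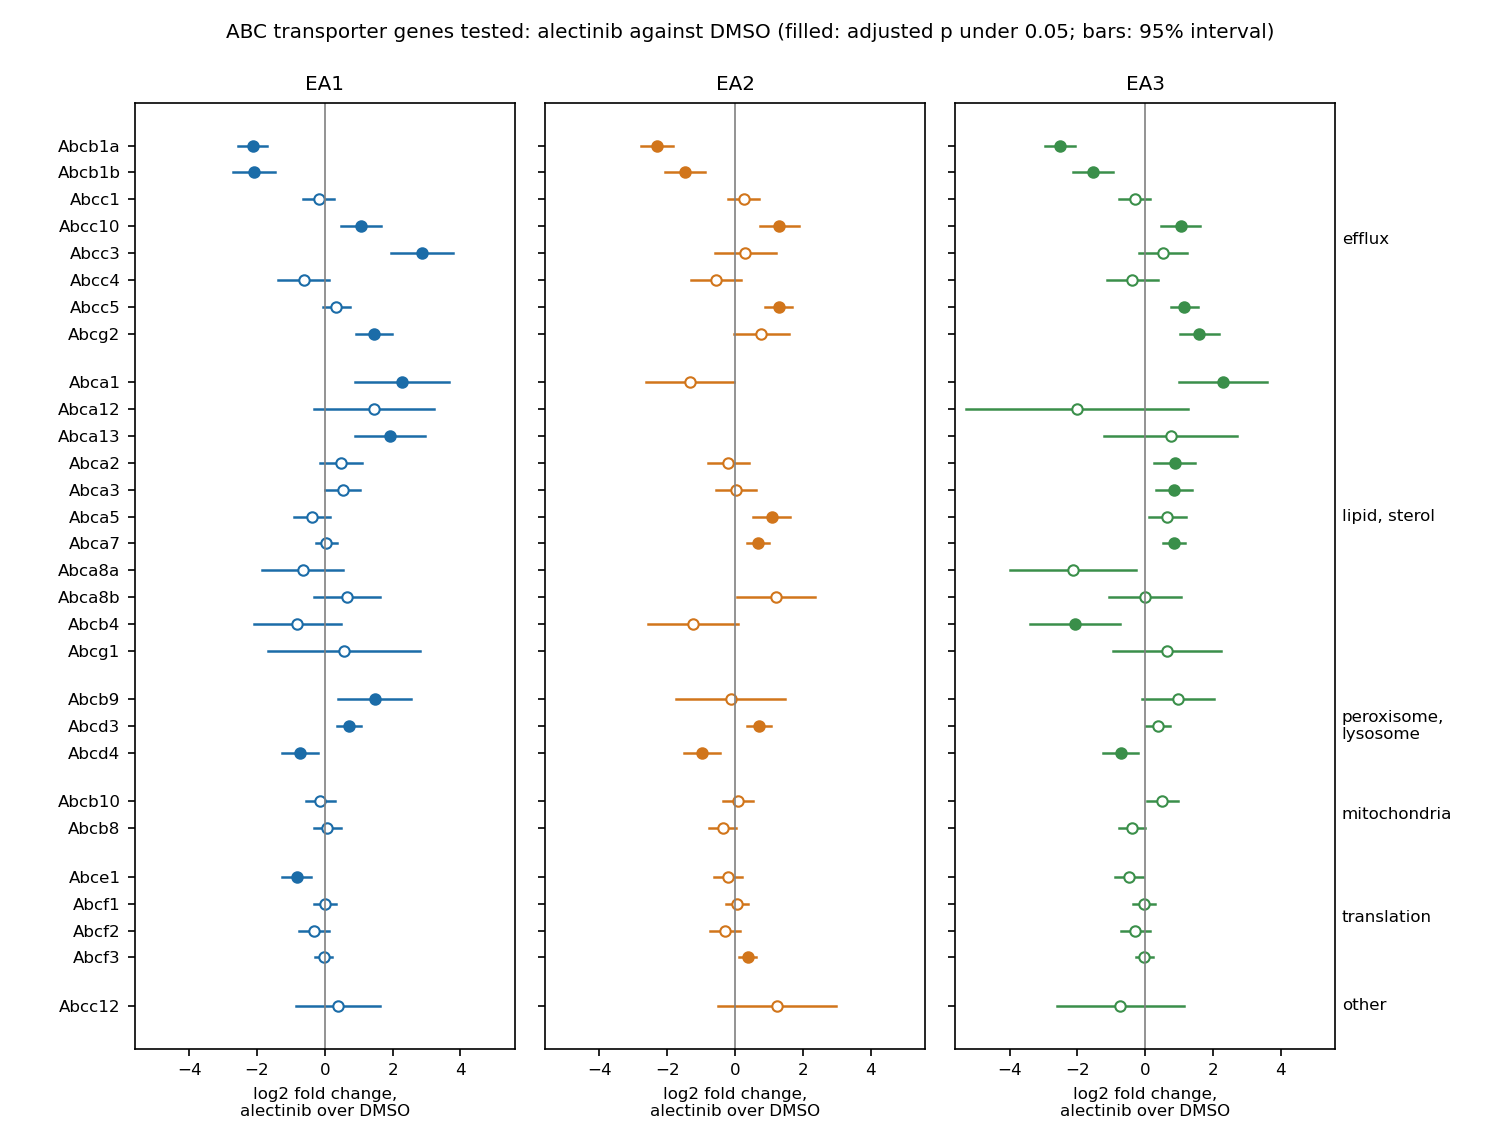
Log2 fold change, alectinib over DMSO, of 29 of the 31 tested ABC transporter genes in EA1, EA2 and EA3, grouped by role, with 95% intervals from edgeR's fit. Filled points passed an adjusted p of 0.05, and 4 points were left out because a treatment was at 0 or no library had more than 3 counts. Abcb1a and Abcb1b sit between -2.52 and -1.47 in every line, and Abcc10 between 1.05 and 1.31.

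Abcb1a and Abcb1b lie side by side on mouse chromosome 5, at chr5:8660077-8748575 and chr5:8798147-8866315 on the plus strand (mm10, GENCODE M21), with Abcb4 next at chr5:8893717-8959231. The coding sequences of the pair matched at 88.1% of 3819 aligned positions, and their longest identical stretch, 338 bases, is longer than the 151 bases of a read. A read within it cannot be placed in 1 gene by itself, although its mate may lie outside it. Of all 100-base windows in the transcripts, 9.03% of those of Abcb1a and 6.04% of those of Abcb1b occur in the other gene. How reads shared by the pair were counted was not tested, so the level of each is uncertain, and the sum of both is given too. 1 read length of that stretch, coding positions 1511 to 1661 of Abcb1a and 1520 to 1670 of Abcb1b, is shown from the GENCODE transcript because both genes contain it. The capitals mark the 5 codons of the signature motif by which ABC proteins are recognised.
Abcb1a and Abcb1b, shared coding stretch: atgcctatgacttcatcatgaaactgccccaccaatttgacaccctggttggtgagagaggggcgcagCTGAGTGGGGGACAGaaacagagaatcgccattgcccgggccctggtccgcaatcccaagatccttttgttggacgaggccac

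The promoters of the pair, 300 bases across the RefSeq start (GRCm38.p6), differ, and they are shown because the genes fell together. Motifs were searched on both strands and are in capitals. Abcb1b holds 2 CCAAT boxes (CCAAT, in 37.4% of 32851 promoters) at -87 and -66 and 1 GC box (GGGCGG, in 35.7%) at -48. Abcb1a, whose RefSeq start lies 92986 bases before the GENCODE start, holds 1 FOXO site (GTAAACA, in 3.65%) at -20. No AP-1 site (TGANTCA, in 7.81%), cAMP response element (TGACGTCA, in 1.79%), ETS site (CCGGAAG, in 8.86%), E box (CACGTG, in 7.15%) or TATA box (TATAAA, in 13.6%) stood in either window. A match is only a match of letters.
Abcb1a promoter, chr5:8566841-8567140, plus strand: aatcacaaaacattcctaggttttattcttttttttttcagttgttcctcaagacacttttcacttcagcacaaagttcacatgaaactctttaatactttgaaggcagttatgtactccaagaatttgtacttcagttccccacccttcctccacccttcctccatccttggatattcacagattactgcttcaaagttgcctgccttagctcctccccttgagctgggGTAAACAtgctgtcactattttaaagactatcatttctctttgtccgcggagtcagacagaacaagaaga
Abcb1b promoter, chr5:8797897-8798196, plus strand: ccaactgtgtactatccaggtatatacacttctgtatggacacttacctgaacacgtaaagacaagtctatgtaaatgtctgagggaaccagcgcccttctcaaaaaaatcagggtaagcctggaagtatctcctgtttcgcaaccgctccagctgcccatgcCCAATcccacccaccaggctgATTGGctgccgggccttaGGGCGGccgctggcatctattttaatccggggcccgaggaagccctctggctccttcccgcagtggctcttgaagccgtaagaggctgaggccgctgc

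Among drug and conjugate efflux transporters, 8 of 9 were tested, of which 3 rose and 2 fell in EA1, 2 rose and 2 fell in EA2, and 3 rose and 2 fell in EA3. As shares of those tested, 37.5%, 25% and 37.5% rose, against 19.0%, 13.0% and 17.5% of all genes. Falls were 25% in each line, against 14.6%, 11.3% and 15.1% of all genes. These differences were not tested. The 2 that fell were Abcb1a and Abcb1b in each line, and those that rose were Abcc10 in all 3 lines, Abcg2 in EA1 and EA3, Abcc5 in EA2 and EA3, and Abcc3 in EA1. The median log2 fold change of the list was 0.08, 0.28 and 0.11. Abcc2 was not tested, with at most 2 counts in any library.

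Abcb1a encodes a pump with a broad range of drug substrates. In EA1, Abcb1a stood at 74.4, 94.7, 189 and 167 CPM in DMSO on days 1, 2, 3 and 5, and at 19.5, 29.6, 35.4 and 30.1 CPM with alectinib. EA2 had less of it, with 12.7, 14.0, 26.7 and 15.9 CPM in DMSO and 1.88, 3.00, 7.11 and 2.92 CPM with alectinib. In EA3 the DMSO libraries held 22.1, 39.0, 77.8 and 94.1 CPM and the alectinib libraries 6.19, 6.87, 10.5 and 13.5 CPM. Every alectinib library lay below every DMSO library of its line. The log2 fold change was -2.13 ± 0.20 in EA1 (SE, n = 4 days, adjusted p = 9.09e-06), -2.30 ± 0.22 in EA2 (1.45e-05) and -2.52 ± 0.21 in EA3 (5.20e-06).

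Abcb1b, the second gene for the pump, was more even across lines. Its CPM in EA1 were 50.3, 29.2, 113 and 86.2 in DMSO and 19.4, 13.7, 13.6 and 12.8 with alectinib on days 1, 2, 3 and 5. In EA2 they were 61.4, 67.9, 68.8 and 60.1 in DMSO and 23.3, 21.2, 32.3 and 18.1 with alectinib. In EA3 they were 97.9, 76.0, 95.8 and 69.2 in DMSO and 30.8, 31.7, 38.6 and 18.3 with alectinib. Here too the treatments did not overlap in any line. The log2 fold change was -2.08 ± 0.29 in EA1 (adjusted p = 0.000190), -1.47 ± 0.27 in EA2 (0.00162) and -1.54 ± 0.27 in EA3 (0.000981). The effects on Abcb1a and on Abcb1b were not shown to differ between lines (adjusted p = 0.578 and 0.475).

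Summed over both genes, from which reads that fit either gene may be missing, the EA1 level was 201.1 ± 90.9 CPM in DMSO and 43.5 ± 4.15 CPM with alectinib (mean ± SD, n = 4). The sum in EA2 was 81.9 ± 9.62 and 27.4 ± 8.14 CPM, and in EA3 143 ± 29.8 and 39.1 ± 7.27 CPM. The daily log2 ratio of the sum was below 0 on 4 of 4 days in each line, from -2.63 to -1.51 in EA1, -1.86 to -1.28 in EA2 and -2.36 to -1.57 in EA3. These daily ratios are given without a test. Abcb1a made up 59.6% to 76.4% of the sum in EA1 DMSO, 17.1% to 27.9% in EA2 DMSO and 18.4% to 57.6% in EA3 DMSO, a range over days that was widest in EA3.

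Abcg2 encodes an exporter of drugs, urate and porphyrins, at chr6:58584523-58695676 on the plus strand. In EA1 it stood at 22.5, 29.97, 17.2 and 29.99 CPM in DMSO and 55.8, 65.9, 73.8 and 71.6 CPM with alectinib. EA3 had 4.67, 5.13, 3.43 and 3.79 CPM in DMSO and 11.3, 14.8, 17.0 and 9.52 CPM with alectinib. EA2 was lowest, with 0.985, 0.595, 0.601 and 0.945 CPM against 0.593, 1.59, 1.02 and 2.70 CPM. The treatments did not overlap in EA1 or EA3 and overlapped in EA2, where no library had more than 24 counts. The fold change on the log2 scale was 1.45 ± 0.25 in EA1 (adjusted p = 0.000816), 1.60 ± 0.27 in EA3 (0.000722) and 0.78 ± 0.38 in EA2 (0.159). A difference between lines in this effect was not shown (adjusted p = 0.448), and the interval of EA2 minus EA1 ran from -1.67 to 0.32.

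Abcc1, the multidrug resistance-associated protein that exports glutathione conjugates, was called in no line. Its level in DMSO was 13.8 CPM per kilobase of exon in EA1, 21.1 in EA2 and 18.5 in EA3. In EA1 it held 138, 136, 256 and 305 CPM in DMSO and 129, 190, 194 and 190 CPM with alectinib. In EA2 the values were 275, 271, 374 and 355 CPM against 363, 299, 556 and 334 CPM, and in EA3 they were 214, 163, 457 and 282 CPM against 176, 192, 218 and 262 CPM. The treatments overlapped in every line. The 95% intervals of the log2 fold change were -0.63 to 0.28 in EA1, -0.20 to 0.71 in EA2 and -0.76 to 0.16 in EA3. Abcc4, an exporter of cyclic nucleotides and prostaglandins, was also called in no line, with log2 fold changes of -0.62, -0.56 and -0.38 and adjusted p-values of 0.185, 0.255 and 0.430.

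Abcc3, an exporter of glucuronides and bile salts, was far higher in EA3 than in EA1 and EA2. EA3 held 112, 106, 117 and 139 CPM in DMSO and 173, 160, 111 and 268 CPM with alectinib. EA1 had 1.67, 3.68, 0.321 and 2.20 CPM in DMSO, its day 3 value being 3 counts, and 11.1, 10.8, 11.7 and 20.1 CPM with alectinib. EA2 had 3.76, 3.57, 2.81 and 4.21 CPM against 8.89, 3.18, 4.85 and 2.14 CPM. With alectinib EA1 thus rose above all its controls yet stayed below every EA3 library. On the log2 scale the fold change was 2.86 ± 0.43 in EA1 (adjusted p = 0.000314), 0.30 ± 0.42 in EA2 (0.638) and 0.53 ± 0.33 in EA3 (0.248).

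Abcc5, an exporter of cyclic nucleotides and nucleotide analogues, and Abcc10, which exports drugs and conjugates, rose in most lines. In EA2, Abcc5 stood at 56.7, 59.0, 40.7 and 48.7 CPM in DMSO and 124, 101, 134 and 141 CPM with alectinib. In EA3 it stood at 91.4, 77.2, 102 and 38.7 CPM against 191, 171, 162 and 131 CPM. In EA1, already the highest without drug, it stood at 121, 116, 144 and 113 CPM against 147, 143, 159 and 177 CPM. The alectinib libraries of the 3 lines thus spanned 101 to 191 CPM, while DMSO libraries spanned 38.7 to 144 CPM. The log2 fold change of Abcc5 was 1.29 ± 0.18 in EA2 (adjusted p = 0.000237), 1.15 ± 0.18 in EA3 (0.000486) and 0.34 ± 0.18 in EA1 (0.157), and the difference between lines missed the threshold (0.0608).

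Abcc10 was lower than Abcc5 per kilobase of exon, at 0.809 to 1.01 against 4.80 to 11.6 CPM per kb in DMSO. In EA1 its CPM were 3.97, 7.02, 2.78 and 8.40 in DMSO and 10.1, 9.55, 11.1 and 12.6 with alectinib. In EA2 they were 6.98, 5.05, 7.22 and 6.19 in DMSO and 24.5, 9.19, 24.4 and 10.3 with alectinib. In EA3 they were 5.65, 4.90, 7.52 and 9.72 in DMSO and 11.4, 11.5, 15.0 and 19.2 with alectinib. All alectinib libraries exceeded all DMSO libraries of their line. On the log2 scale Abcc10 rose by 1.07 ± 0.27 in EA1 (adjusted p = 0.00891), by 1.31 ± 0.27 in EA2 (0.00325) and by 1.05 ± 0.27 in EA3 (0.00881). Without day 1 or day 3 the Abcc10 call in EA1 was lost (adjusted p up to 0.0875), as was that in EA3 without day 2 (0.0529). The calls for Abcb1a, Abcb1b, Abcg2, Abcc3 and Abcc5 held without any 1 day.

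**Figure D2:**
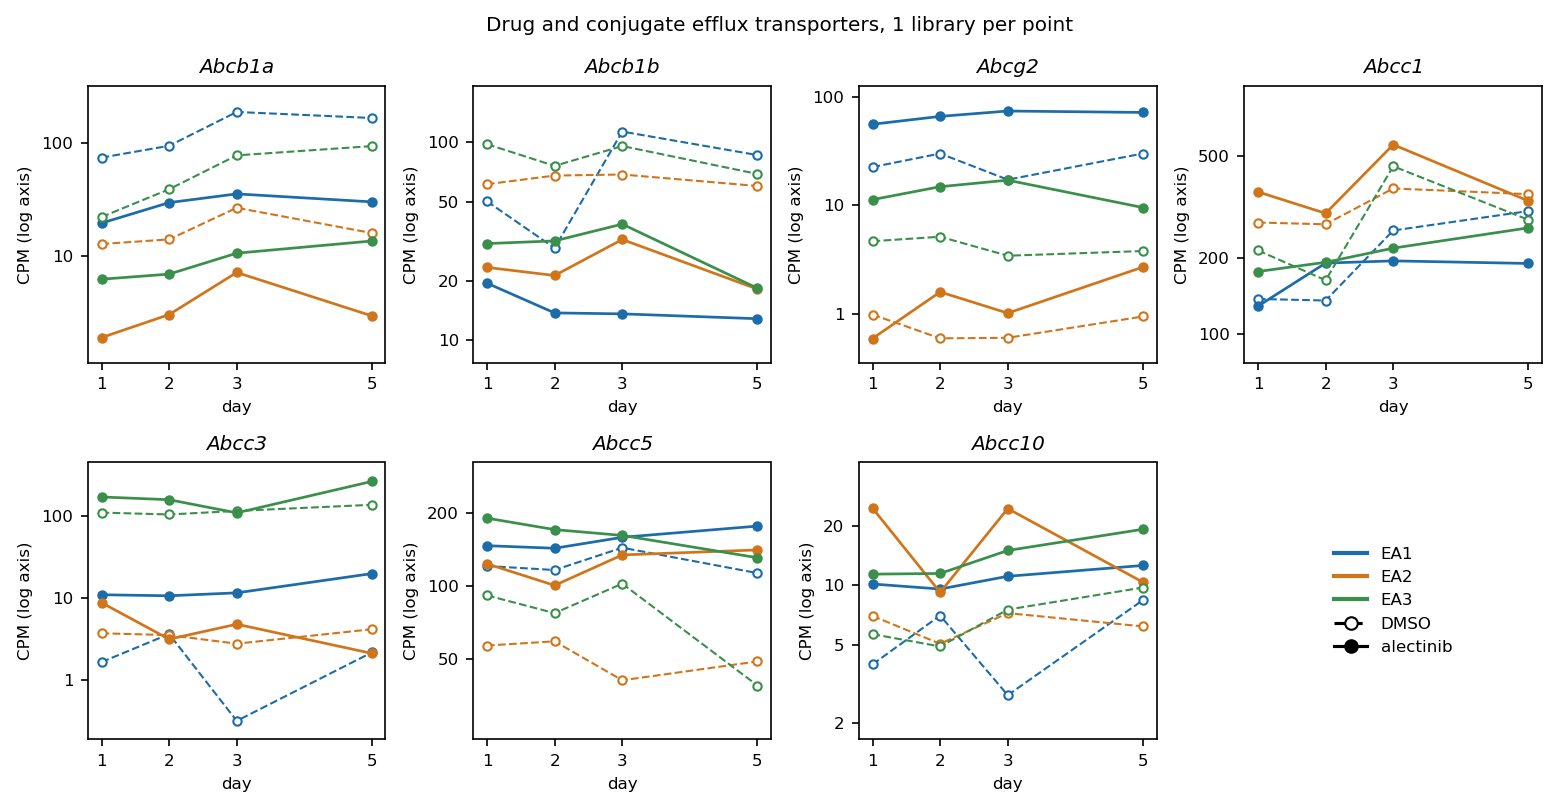
CPM (log axis) of efflux transporters by day in EA1, EA2 and EA3, 1 library per point, with open points for DMSO and filled points for alectinib. Abcb1a and Abcb1b lie lower with alectinib at every line and day, Abcg2 lies higher in EA1 and EA3, and Abcc1 crosses over between treatments.

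Among lipid and sterol transporters, 11 of 17 were tested, of which 2 rose in EA1, 2 rose in EA2, and 4 rose and 1 fell in EA3. As shares of those tested, 18.2%, 18.2% and 36.4% rose, against 19.0%, 13.0% and 17.5% of all genes. The share that fell in EA3 was 9.09%, against 15.1% of all genes. These differences were not tested. Those that rose were Abca1 in EA1 and EA3, Abca7 in EA2 and EA3, Abca13 in EA1, Abca5 in EA2, and Abca2 and Abca3 in EA3, and the one that fell was Abcb4. Over the members with counts in both treatments and more than 3 in a library, 11, 7 and 11 of them, the list median of the log2 fold change was 0.53, 0.04 and 0.66.

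Abca1, which loads cholesterol and phospholipid onto apolipoprotein A-I, lies at chr4:53030787-53159895 on the minus strand. In EA1 it held 2.41, 1.78, 1.496 and 3.36 CPM in DMSO and 2.99, 10.2, 14.1 and 24.05 CPM with alectinib. In EA3 it held 3.77, 3.27, 18.3 and 32.1 CPM in DMSO and 15.2, 50.6, 23.1 and 250.8 CPM with alectinib. In EA2 it held 6.36, 7.88, 30.5 and 26.6 CPM in DMSO and 6.91, 3.54, 12.9 and 3.15 CPM with alectinib. The alectinib library was the higher one on 4 of 4 days in EA1 and EA3 and on 1 of 4 days in EA2, but the treatments overlapped in every line. The log2 fold change was 2.28 ± 0.64 in EA1 (adjusted p = 0.0163), 2.31 ± 0.60 in EA3 (0.0109) and -1.32 ± 0.60 in EA2 (0.133). In EA3 the day 5 library alone held 250.8 CPM.

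Abcg1, a partner in sterol export, hardly reached detection outside EA3. EA3 held 1.35, 1.17, 0.660 and 2.64 CPM in DMSO and 2.12, 4.36, 0.188 and 4.33 CPM with alectinib. EA1 held 0.314, 0.334, 0.107 and 0 CPM in DMSO and 0.482, 0, 0.311 and 0.335 CPM with alectinib, which is at most 5 counts. EA2 had 1 count in a DMSO library, 1 in an alectinib library and 0 in the others. The gene was called in no line (adjusted p = 0.694, 0.983 and 0.534), and at this depth a fall or a small rise in EA1 or EA2 was not detectable.

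Abca3, the lamellar body lipid transporter of alveolar type 2 cells, was measured at 71.1, 41.1, 84.7 and 77.1 CPM in EA3 DMSO and 107, 127, 80.4 and 186 CPM in EA3 alectinib. EA1 had 38.6, 38.2, 28.9 and 55.4 CPM against 51.6, 51.9, 62.5 and 61.2 CPM. EA2 had 5.73, 5.35, 6.82 and 6.27 CPM against 5.04, 4.24, 9.93 and 6.41 CPM. On day 3 the EA3 libraries were nearly level, on the other days alectinib was higher. For Abca3 the log2 fold change was 0.85 ± 0.24 in EA3 (adjusted p = 0.0169), 0.53 ± 0.24 in EA1 (0.107) and 0.04 ± 0.28 in EA2 (0.945).

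Abca5, a lysosomal lipid transporter, rose in EA2 from 11.2, 14.1, 23.2 and 20.5 CPM to 18.3, 25.3, 75.1 and 42.5 CPM. EA1 had 33.8, 37.5, 59.4 and 77.8 CPM in DMSO and 32.5, 32.8, 46.8 and 40.7 CPM with alectinib, and EA3 had 13.5, 14.1, 42.1 and 30.6 CPM against 32.6, 37.1, 40.8 and 31.9 CPM. The EA1 value was lower with alectinib on 4 of 4 days. The log2 fold change was 1.08 ± 0.26 in EA2 (adjusted p = 0.00748), -0.38 ± 0.25 in EA1 (0.247) and 0.66 ± 0.26 in EA3 (0.0639).

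Abca13, one of the longest ABC genes, rose in EA1 from 4.08, 15.8, 9.62 and 5.56 CPM to 9.17, 35.8, 51.6 and 42.0 CPM, a log2 fold change of 1.92 ± 0.46 (adjusted p = 0.00920). In EA2 it had at most 3 counts in a DMSO library and 0 in every alectinib library, and in EA3 between 0 and 1.19 CPM. Abcb4, the canalicular phosphatidylcholine translocator, fell in EA3 from 0.628, 1.40, 5.94 and 3.62 CPM to 0.554, 0.109, 0.659 and 1.08 CPM, a log2 fold change of -2.07 ± 0.61 (0.0200). In the other lines it was at 0.321 to 2.67 CPM in DMSO and 0.337 to 1.06 CPM with alectinib, with log2 fold changes of -0.81 in EA1 (0.306) and -1.24 in EA2 (0.165). These counts are low, at most 45 in a library.

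Abca7, a phospholipid transporter, rose from 58.3 ± 13.1 to 93.6 ± 23.9 CPM in EA2 (log2 fold change 0.68 ± 0.15, adjusted p = 0.00464) and from 63.2 ± 8.46 to 114 ± 12.3 CPM in EA3 (0.85 ± 0.15, 0.000908), and was at 54.5 and 56.5 CPM in EA1 (0.05 ± 0.15, 0.83). Abca2, a lysosomal lipid transporter, rose in EA3 from 83.9 ± 28.1 to 149 ± 25.7 CPM (0.87 ± 0.28, 0.0302). Abca12, Abca8a and Abca8b averaged at most 4.19 CPM in any line and treatment and were called in none. Several of these calls were lost when 1 day was left out, although the log2 fold changes kept their sign. With a day left out these were 1.93 to 2.85 for Abca1 in EA1 and 1.75 to 2.94 in EA3. They were 1.55 to 2.16 for Abca13 in EA1 and 0.865 to 1.21 for Abca5 in EA2. In EA3 they were 0.549 to 1.14 for Abca3, 0.708 to 1.10 for Abca2 and -2.65 to -1.64 for Abcb4. The Abca1 call was lost in EA1 without day 2, 3 or 5 (adjusted p up to 0.0762) and in EA3 without day 2 or 5 (up to 0.209). Without day 3 those of Abca13 in EA1 (0.0669) and Abca5 in EA2 (0.0540) were lost. In EA3 the Abca3 call was lost without day 2 or 5 (up to 0.160), that of Abca2 without day 1, 2 or 5 (up to 0.153) and that of Abcb4 without day 2, 3 or 5 (up to 0.0832). Both Abca7 calls held.

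The genes of the liver X receptor pathway, whose sterol-sensing receptors are known to drive Abca1 and Abcg1, were counted from a list of 12, all tested. In EA1 5 rose (Nr1h3, Lpcat3, Pltp, Lpl and Smpdl3a) and 2 fell (Rxrb and Apoe), in EA2 Smpdl3a rose and Srebf1 and Arl4c fell, and in EA3 Smpdl3a rose and Rxrb fell. As shares of the list, 41.7%, 8.33% and 8.33% rose, against 19.0%, 13.0% and 17.5% of all genes. Falls were 16.7%, 16.7% and 8.33%, against 14.6%, 11.3% and 15.1% of all genes. These differences were not tested. Only Smpdl3a, a phosphodiesterase and target of the receptors, passed in all 3 lines, from 0.519 to 1.92 CPM in EA1, 0.171 to 2.24 CPM in EA2 and 0.563 to 11.5 CPM in EA3. Over the genes with counts in both treatments and more than 3 in a library, 12, 11 and 12 of them, the list median was 0.41, 0.18 and 0.23.

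Among members that serve peroxisomes and lysosomes, Abcd3 and Abcb9 rose and Abcd4 fell in 1 or more lines. Abcd3, a peroxisomal importer of branched chain and dicarboxylic acyl-CoA, rose from 64.9 ± 12.2 to 106 ± 11.9 CPM in EA1 (log2 fold change 0.72 ± 0.17, adjusted p = 0.00506) and from 52.0 ± 8.33 to 85.0 ± 16.4 CPM in EA2 (0.70 ± 0.16, 0.00724), with 0.37 in EA3 (0.103). Abcd4, a lysosomal protein of the cobalamin pathway, fell from 34.6 ± 12.1 to 20.8 ± 5.95 CPM in EA1 (-0.72 ± 0.25, 0.0373), from 40.2 ± 8.12 to 21.2 ± 7.54 in EA2 (-0.97 ± 0.25, 0.0111) and from 45.4 ± 10.0 to 27.2 ± 4.20 in EA3 (-0.72 ± 0.24, 0.0356). Abcb9, a lysosomal peptide transporter, held 0.732, 0.780, 1.496 and 1.68 CPM in EA1 DMSO and 2.03, 4.41, 3.83 and 2.68 CPM in EA1 alectinib, a rise of 1.47 ± 0.50 on the log2 scale (0.0385). EA3 had 0.987, 1.28, 1.72 and 2.14 CPM of Abcb9 against 2.12, 2.29, 2.82 and 4.98 CPM (0.96 ± 0.49, 0.152), and EA2 had 0 to 0.677 CPM over both treatments. The Abcb9 call was lost without day 1, 2 or 3 (up to 0.162), and that of Abcd3 without day 3 in EA1 (0.0642) and day 2 in EA2 (0.0579). The Abcd4 call was lost without day 1, 2 or 5 in EA1 (up to 0.146) and without day 2 or 5 in EA2 (up to 0.0691) and EA3 (up to 0.132). With library size alone as the scaling it was lost in EA1 (log2 fold change -0.63) and EA3 (-0.60).

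**Figure D3:**
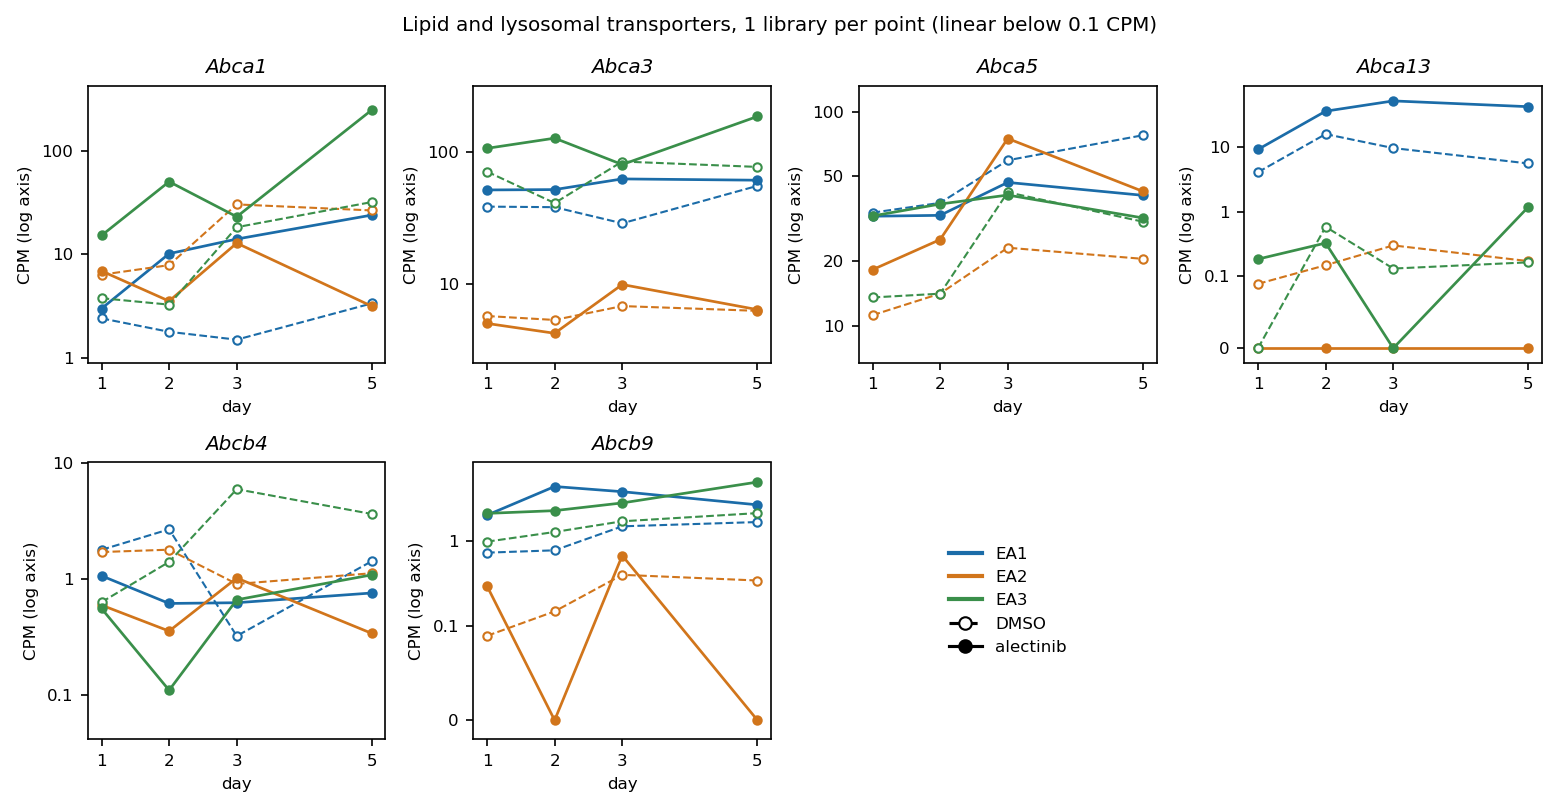
CPM (log axis, linear below 0.1 CPM) of lipid and lysosomal transporters by day in EA1, EA2 and EA3, 1 library per point, open for DMSO and filled for alectinib. Abca1 reaches 250.8 CPM in EA3 on day 5, and Abca13 is near 0 outside EA1.

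Among mitochondrial members, Abcb8, which acts in iron handling, and Abcb10, which acts in heme synthesis, were called in no line. Their log2 fold changes lay between -0.38 and 0.50. Of the 4 ATPases of translation, Abce1, which recycles ribosomes, fell in EA1 from 407 ± 122 to 224 ± 34.0 CPM (-0.83 ± 0.20, adjusted p = 0.00625), and Abcf3 rose in EA2 from 52.6 ± 0.625 to 68.1 ± 5.86 CPM (0.37 ± 0.12, 0.0343). Without day 3 the Abce1 call was lost (0.0646), and the Abcf3 call was lost without any 1 of the days (up to 0.367), with library size alone and with no filter on low counts. Abcf1 and Abcf2 were called in no line. Per kilobase of exon in DMSO, the levels of Abce1, Abcf1 and Abcf2 were the highest of the tested members in each line, at 67.7, 43.4 and 49.2 CPM per kb in EA1. By the same measure the efflux members Abcc4 and Abcc1 stood at 20.8 and 21.1 CPM per kb in EA2, Abcc4 and Abcc3 at 21.4 and 20.8 in EA3, and Abcc4 at 29.8 in EA1. The order of these levels was not tested, and Abcc4 varied widely between days in EA1 and EA3, at 190 ± 122 and 136 ± 84.0 CPM. Abcc12, a member without a settled substrate, was also called in no line.

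The remaining 19 members had too few counts to be tested. Of these, 8 had at most 3 counts in every library, namely Abca14, Abca15, Abca16, Abcb5, Abcc2, Abcc8, Abcc9 and Abcg3. The other 11 reached at most 24 counts, in Abca9, with Abca4, Abca6, Abca17, Abcb6, Abcb11, Abcc6, Abcd2, Abcg4, Abcg5 and Abcg8 below that. Abcb6, a porphyrin transporter of mitochondria, had at most 8 counts in a library, and 55.2% of its exon bases also lie in Gm29253, a gene on the same strand, so that its counts may be split. Of the ABC proteins under other symbols, the peptide transporter subunit gene Tap2 rose in EA2 (2.04, adjusted p = 0.00270) and EA3 (1.09, 0.0362), Tap1 was called in no line and Cftr was not tested.

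The lines differed in the alectinib effect on 3 members, Abca1, Abca5 and Abcc3, by a test with 2 degrees of freedom, and 6.84% of all genes did so. At an unadjusted p under 0.05 there were 7 of 31 members and 25.1% of all genes. For Abca1, the log2 fold change in EA2 was lower than in EA1 by -3.60 (95% interval -5.5 to -1.69, adjusted p = 0.0312), and that in EA3 was higher than in EA2 by 3.62 (1.79 to 5.46, 0.0405). For Abca5, EA2 exceeded EA1 by 1.47 (0.70 to 2.23, 0.0286). For Abcc3, the rise in EA1 was larger than those in the other lines, with EA2 minus EA1 at -2.55 (-3.84 to -1.27, 0.0241) and EA3 minus EA1 at -2.33 (-3.50 to -1.16, 0.0471). All 3 calls rested on the days used: 1 was left without day 1 and without day 2, and 0 without day 3 and without day 5 (adjusted p up to 0.190 for Abca1, 0.168 for Abca5 and 0.126 for Abcc3). With all 26 libraries all 3 were lost, without the replicate block Abca1 and Abca5 were lost, and with DESeq2 size factors Abca5 was lost. The alectinib effect changed with log2 day in 0 members by edgeR's test, against 0.140% of all genes, and in 2 of 31 at an unadjusted p under 0.05, Abca5 and Abcb10, where 13.4% of all genes passed.

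Without drug, 17 of 29 members tested differed between lines, and 55.6% of all 12886 genes tested did. Abcg2 was highest in EA1 at 24.9 ± 6.23 CPM, then EA3 at 4.25 ± 0.782 and EA2 at 0.782 ± 0.213, with all 3 pairs of lines past the threshold and EA2 below EA1 by -4.95 ± 0.28 on the log2 scale. Abcb1a fell in the order EA1, EA3 and EA2, at 131 ± 55.4, 58.2 ± 33.4 and 17.3 ± 6.37 CPM, again with all 3 pairs apart. Abcc3 was at 118 ± 14.5 CPM in EA3 against 3.59 ± 0.585 in EA2 and 1.97 ± 1.39 in EA1, and the latter pair did not differ beyond its spread (adjusted p = 0.0790). Abca13 was at 8.77 ± 5.25 CPM in EA1 and at 0.178 and 0.220 CPM on average in EA2 and EA3. Abca3 was lowest in EA2, and Abca1 was lowest in EA1 (2.26 ± 0.825 CPM, against 17.8 ± 12.5 in EA2 and 14.4 ± 13.7 in EA3, which did not differ beyond their spread, adjusted p = 0.378). Abcb1b, Abcc4 and Abcc10 were among the 12 that did not pass.

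**Figure D4:**
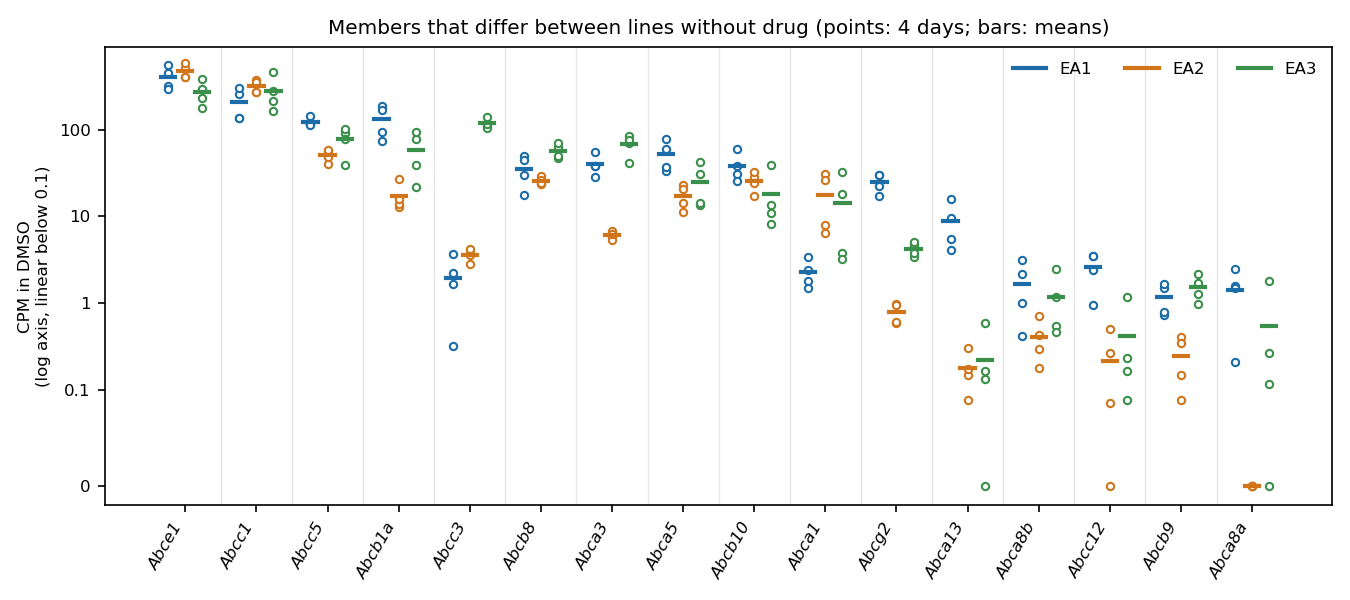
CPM in DMSO (log axis, linear below 0.1 CPM) of 16 of the 17 members that differed between EA1, EA2 and EA3, with a point for each of the 4 days and a bar for the mean. Abcc3 stands at 106 to 139 CPM in EA3 and at most 4.21 CPM in the other lines, and Abcg2 is highest in EA1 and lowest in EA2.

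Sensors and enzymes of drug metabolism, which feed conjugates to efflux pumps, were counted from a list of 19, of which 17 were tested. In EA1 11 rose and 2 fell, in EA2 3 rose and 2 fell, and in EA3 4 rose and 3 fell, with list medians of 1.29, 0.35 and 0.42. Of the genes tested in the list, 64.7%, 17.6% and 23.5% rose, against 19.0%, 13.0% and 17.5% of all genes. Falls were 11.8%, 11.8% and 17.6%, against 14.6%, 11.3% and 15.1% of all genes. These differences were not tested. In all 3 lines, Ahr, the aryl hydrocarbon receptor, rose (log2 fold change 0.67, 0.69 and 1.38), as did Ephx1, which hydrolyses epoxides (1.47, 1.67 and 0.99), while Gsr, the glutathione reductase, fell (-0.70, -0.60 and -0.48).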

How the data were processed

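The authors checked reads with FastQC, trimmed adapters with bbduk, mapped them to mm10 with STAR and deposited raw counts per gene from the internal counter of STAR, with no normalization. The annotation release and the strand column used are not given in the sources used here. Of 55415 table lines, 24 carry a date number in place of a symbol and took 0.129% to 0.201% of a library. Neither library sizes nor tests used them. All further steps were computed here with edgeR 4.0.16 (on limma 3.58.1) and, as an alternative, DESeq2 1.42.0, under R 4.3.3 and Python 3.11.15.

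Genes were filtered with filterByExpr by line and treatment, TMM factors were taken from the tested genes, and 1 quasi-likelihood fit (robust) covered 24 libraries with 12 blocks, each a line and day, and 1 alectinib effect per line. The block comes from the labels, which give DMSO and alectinib libraries the same line and day, and their deviations from group means correlated at -0.299 to 0.549 over the 12 pairs. The difference between lines, the slope on log2 day and the DMSO levels with day as a term were tested as F tests. The labels do not say that libraries came from separate cultures, so p-values measure the spread between days only. Adjusted p-values follow Benjamini and Hochberg over all genes tested.

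Every tested efflux and lipid transporter and every other called member is named, except for items that are not reported here, with each library's values where a called log2 fold change reached 1 in size and for Abcb1a, Abcb1b, Abcg2, Abcc1, Abca1, Abcg1 and Abca3. The members and gene lists were chosen with earlier results of these data known. Daily ratios used a pseudocount of 0.1 CPM. The alternatives were DESeq2, its size factors, library size alone, other filters, no block, each line alone, all 26 libraries, each day left out and a log2 fold change of at least 1. TMM factors from all genes were added after seeing the data. Only calls of members were checked under these alternatives, so calls of markers and of genes in the other lists were not. RefSeq promoters were found for 38 member symbols.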

Additional observations from a re-analysis of the deposited data

Results flagged for a closer look

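In 90 groups of 4 libraries, 1 line and treatment for each of the members shown by library, 6 had a library far from the other 3, and chance sets about 5% of such groups apart. Abca1 stood at 250.8 CPM in the EA3 alectinib library of day 5, against 15.2 to 50.6 CPM on the other days. Abcb1b stood at 19.4 CPM in EA1 alectinib on day 1, against 12.8 to 13.7 CPM. Abcc1 stood at 129 CPM in EA1 alectinib on day 1, below 190 to 194 CPM on the other days. Abcc3 stood at 20.1 CPM in EA1 alectinib on day 5, against 10.8 to 11.7 CPM. Abcg1 had 0.100 CPM in EA2 DMSO on day 3 and 0.0988 CPM in EA2 alectinib on day 1, 1 count each, with 0 in the other libraries of each group.

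The alectinib effect differed between lines for Abca1 (adjusted p = 0.0295), Abca5 (0.0484) and Abcc3 (0.0267) by edgeR's test of the difference.

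The libraries labelled EA3 day 7, which entered only the alternative with all 26 libraries, held 10.2 CPM of Abcc10 with alectinib against 5.54 CPM in DMSO. Among other members called in EA3, Abcc5 and Abcg2 were higher and Abcb1a, Abcb1b and Abcb4 lower with alectinib in this pair, the direction of their calls, while Abca1 (60.6 CPM in DMSO, 7.79 CPM with alectinib) and Abca3 (7.05 and 5.25 CPM) were lower, against theirs. There is 1 library of each treatment, so these differences have no replicate check. The pair correlated more closely with EA2 than with EA3 libraries, as given above, so it cannot serve as a check of the EA3 calls. In EA2, Abca1 had a log2 fold change of -1.32 and was not called. Abca3 averaged 6.04 CPM in EA2 DMSO and 68.5 CPM in EA3 DMSO on days 1 to 5.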

How the results depend on the processing

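Of the 34 calls of a member in a line, 26 held under every alternative that tested the member, left no day out and set no limit on the fold change, 17 were lost without at least 1 day, and 0 reversed. When calls also needed a log2 fold change of 1 or more in either direction, 2 members were lower in EA1, 4 higher in EA2 and 5 higher in EA3. With at least 10 counts in every library, which leaves 21 members tested, 4 were higher in EA1 and 10 differed between lines in DMSO, and with no filter on low counts 6 were lower in EA2. With all 26 libraries 5 were higher in EA3. The members whose effect differed between lines numbered 6 with DESeq2, 6 with no filter, 0 with all 26 libraries and 1 without the replicate block, and the cause was not tested. No call of a member in a line was lost without the block. Leaving out 1 day gave 3 (without day 3) to 7 members higher in EA1, 4 (without day 2) to 9 higher in EA3, 2 (without day 2 or 5) to 4 lower in EA3 and 0 (without day 3 or 5) to 1 that differed between lines. The limit that a count of 0 allows, 3 counts, was 0.251 to 0.530 CPM, and Abcg1 in EA2 lay below it in every library.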
